A study of Mus musculus with 18 samples.

Results

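Gm2016, Gm2022, Gm5039, Gm5662 and Gm8300 are near-identical mouse gene models, all within 1 stretch of chromosome 12, whose coding sequence resembles that of the translation initiation factor eIF1A. They were selected on measured values of these libraries, as multicopy models far higher after induction of mouse Dux, and they are 5 of the 24028 genes in the count table. All 5 passed the filter on low counts, with at least 19 reads in every library. Since copies this alike share reads, each is given with the sum of the 5. The mouse Dux contrast chose them, so it is given below as a description, and tests are kept for the human DUX4 and luciferase lines.

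The libraries are polyA RNA-seq of C2C12, an established mouse myoblast line, carrying a puromycin-selected transgene: mouse Dux (codon-altered, labelled mDUX), human DUX4 (codon-altered, labelled HDUX4) or luciferase. Each of the 3 lines was sequenced with doxycycline (2 µg/ml for 36 h, here "induced") and without it ("uninduced"), with 3 libraries in each of the 6 groups, so n = 3 for every mean ± SD below. The labels do not say whether libraries came from separate cultures, so p-values measure the spread between these libraries, which may be technical. Each transgene is represented by a single line, so a difference between lines cannot be told apart from a difference between transgenes.

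eIF1A is a small protein that binds the 40S ribosomal subunit, helps recruit the initiator tRNA complex and promotes scanning of the messenger RNA to the start codon. Mouse Dux and human DUX4 are double-homeobox transcription factors that are expressed for a short time in the early embryo, and mouse Dux raises the genes of the 2-cell stage, when the mouse embryo first transcribes its own genome. Eif1a-like copies are among the genes known for that stage, together with the Zscan4, Usp17l and Tcstv families and endogenous retroviral sequences. Eif1a and Eif1ax are the mouse genes for the factor itself.

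Totals ranged from 11010586 to 17179642 counts per library. Induced mouse Dux library 1 stood apart from libraries 2 and 3, with a chi-square per degree of freedom over all genes of 32.1 and 34.3 against them, where 2 and 3 differed by 2.08. Uninduced mouse Dux library 1 did so to a smaller extent (4.96 and 5.04 against 1.25), and the pairs of the other groups lay between 1.33 and 2.70. Of the 8 myoblast markers, 7 had a median above 1 CPM (reads per 1000000 reads of a library, on its TMM-scaled size) over the libraries. None of the 5 pluripotency, 3 endothelial and 3 epithelial markers did, nor did the leukocyte markers Ptprc and Adgre1, while Cd14 (median 11.5 CPM) and Cd68 (1.57 CPM) did.

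By RefSeq on GRCm38 the block of the 5 members runs from Gm8300 (chromosome 12, 87514316 to 87518265, plus strand, Entrez 666806) through Gm2016 (87874072 to 87877859, plus strand, 100039042), Gm2022 (87892834 to 87896722, plus strand, 100039052) and Gm5662 (88270635 to 88274497, minus strand, 435337) to Gm5039 (88320122 to 88321762, minus strand, 266459). It spans 807447 bases and holds 60 RefSeq genes, of which 12 are in the count table. The GENCODE models of Gm2016, Gm5039, Gm5662 and Gm8300 have 2 exons and transcripts of 1766, 1856, 1840 and 1873 bases. The GENCODE model of Gm2022 is a single exon of 435 bases that holds the coding sequence only. RefSeq calls Gm5039 a transcribed pseudogene and the other members protein coding, GENCODE calls all 5 protein coding, and the count table names Gm2022 a predicted pseudogene and Gm5039 a pseudogene of eIF1A.

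The coding sequence is 435 bases long in every member, and the 5 sequences differ from one another at 19 positions. Bases 252 to 371, counted from the A of the start codon, hold 8 of those 19 positions and are printed to show how few letters separate the copies that reads must be assigned between. Capitals mark the positions at which the 5 members are not all the same. In the line of Eif1ax, the X-linked gene for eIF1A, capitals mark the 17 bases found in none of the members.
Gm8300: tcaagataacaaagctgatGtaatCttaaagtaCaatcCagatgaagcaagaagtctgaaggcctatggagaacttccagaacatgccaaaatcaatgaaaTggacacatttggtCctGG
Gm2016: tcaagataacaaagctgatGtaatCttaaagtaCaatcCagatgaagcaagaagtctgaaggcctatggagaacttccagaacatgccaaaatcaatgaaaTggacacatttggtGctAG
Gm2022: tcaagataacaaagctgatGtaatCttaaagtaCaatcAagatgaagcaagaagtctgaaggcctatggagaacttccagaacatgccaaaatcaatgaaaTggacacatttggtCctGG
Gm5662: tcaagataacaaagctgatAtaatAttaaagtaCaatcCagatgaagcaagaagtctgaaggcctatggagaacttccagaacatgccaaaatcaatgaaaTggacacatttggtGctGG
Gm5039: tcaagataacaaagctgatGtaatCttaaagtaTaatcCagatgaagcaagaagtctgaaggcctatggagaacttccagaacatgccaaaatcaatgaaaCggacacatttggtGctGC
Eif1ax: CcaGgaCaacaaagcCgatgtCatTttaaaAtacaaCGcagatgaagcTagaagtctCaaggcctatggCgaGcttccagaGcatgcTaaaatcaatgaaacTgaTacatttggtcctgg
Pairwise coding identity was highest between Gm2016 and Gm5662 (99.1%) and lowest between Gm5039 and Gm5662 (97.0%). Against Eif1ax it was between 84.8% and 85.1%. Eif1a was closer, at 95.2% over 434 aligned bases with its nearest member, Gm8300.

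How far the copies can be told apart was measured on the annotated transcripts. Of all 50-base windows of the Gm2016 transcript, 81.3% occurred in the transcript of another gene, and 75.2% occurred in that of Gm5662. The share was 77.9% for Gm5662, 26.6% for Gm8300 and 17.3% for Gm5039. Gm2022 had 97.2%, over a model without untranslated sequence. With 100-base windows the shares were 64.7% for Gm2016, 58.4% for Gm5662, 66.7% for Gm2022, 10.8% for Gm8300 and 3.81% for Gm5039. Among the members whose model reaches beyond the coding sequence, Gm5039 and Gm8300 hold most sequence of their own. Gm2016 and Gm5662 form the pair among them that shares most. Gm2022 cannot be ranked beside them, as its untranslated sequence was not compared. Of the windows of 50 bases, 13.7% of those of Gm2022 and between 1.95% and 3.76% of those of the other members also occurred in Eif1a, and none occurred in Eif1ax. The sources used here do not state how the deposited counts treated reads that fit several copies.

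Each member was present at a low level in every uninduced library and stood at 1485 CPM or more in every induced mouse Dux library. The sum of the 5 was 23.1, 17.5 and 22.8 CPM in the uninduced mouse Dux libraries 1 to 3 and 13825, 11115 and 12178 CPM in the induced ones. The 2 groups do not overlap, and induced library 1, the one that stood apart, was the highest for each member. The log2 fold change of the sum was 9.20, and it was 9.11 without induced library 1 and 9.26 without uninduced library 1. The 5 rows took 1.11% ± 0.117 of all counts in the induced mouse Dux libraries (1.05% without library 1), and between 0.00226% and 0.0108% on average in the other groups.

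Single members under mouse Dux ranged from Gm5039 at 1630 ± 148 CPM to Gm2022 at 3304 ± 308 CPM. Gm2022 had the largest log2 fold change, 9.80, from 3.78 ± 0.721 CPM uninduced. Gm5039 followed with 9.55, then Gm8300 with 9.16, Gm2016 with 8.98 and Gm5662 with 8.73. In this contrast 34.1% of the 13602 genes tested were called higher and 34.8% lower at an adjusted p under 0.05, and nothing is read from the members against that share because the contrast chose them. BB287469, a close copy in the same block that is not among the 5, had a log2 fold change of 9.93 and reached 3270 ± 371 CPM.

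**Figure D1:**
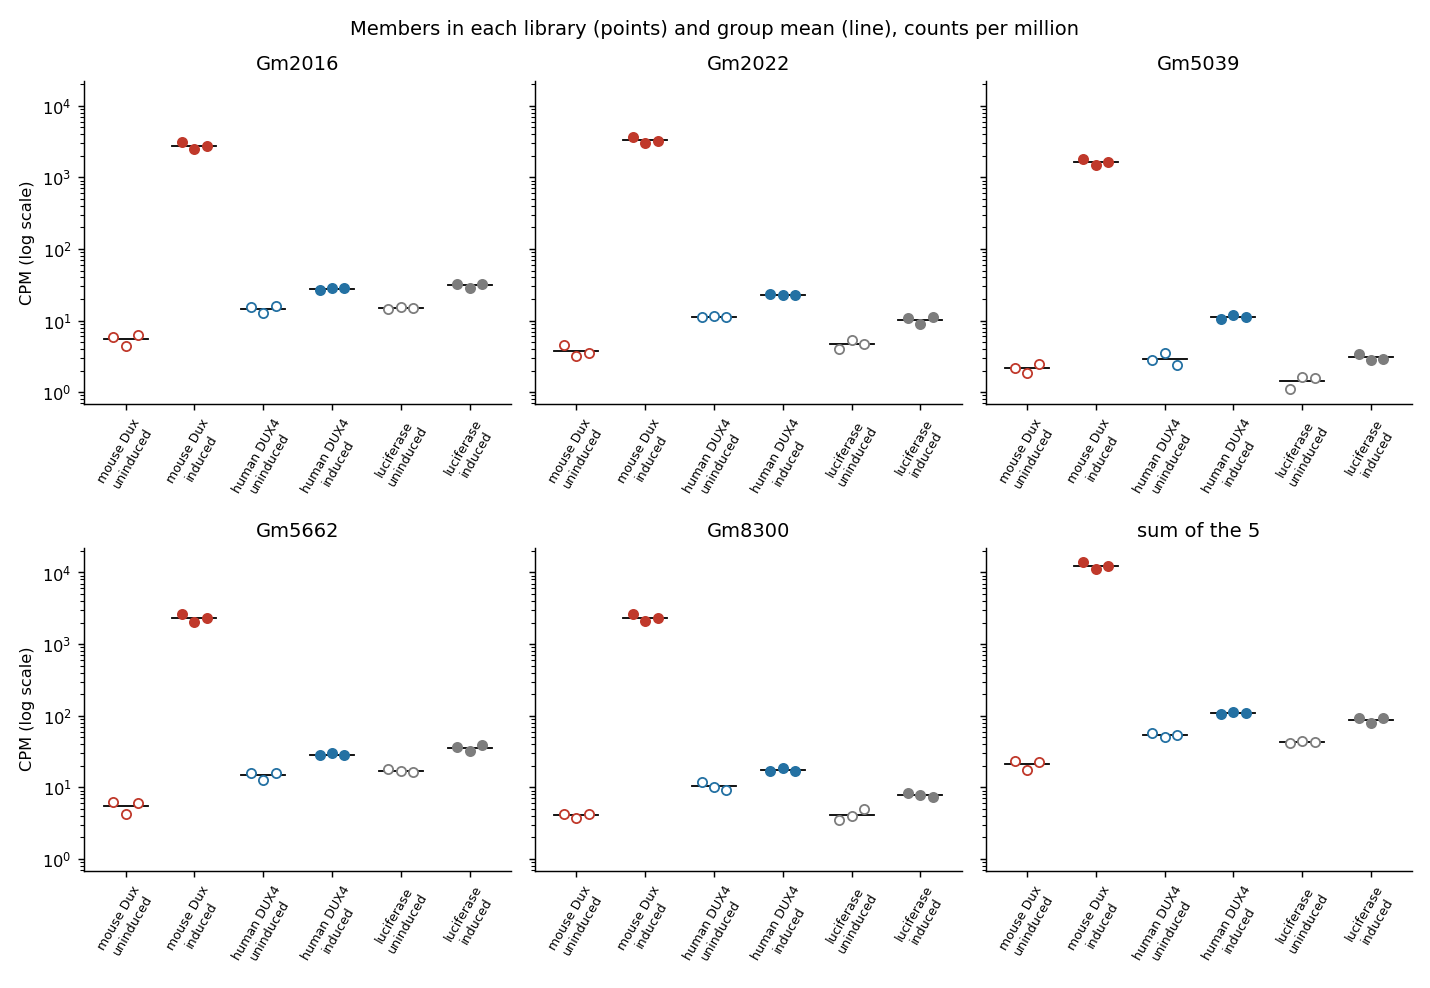
CPM of each member and of their sum on a log axis, 1 point per library, with a line at the group mean; filled points are induced and open points uninduced libraries. Induced mouse Dux libraries stand far above all others in every panel, and in both other lines the filled points lie above the open ones.

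The human DUX4 line had a rise of the same 5 rows that was small beside that under mouse Dux. Their sum was 57.3, 50.2 and 54.5 CPM in the uninduced libraries and 105, 112 and 108 CPM in the induced ones, which do not overlap. The log2 fold change of the sum was 1.00 (SE 0.0901), with an adjusted p of 6.56e-09 by edgeR's quasi-likelihood test. In bulk RNA, more cells with these transcripts and more transcripts per cell cannot be told apart. All 5 members rose, where 34.4% of all genes tested rose and 33.1% fell, and the median change of all genes was 0.00. The 5 calls are not independent of one another, because the rows share reads.

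Gm5039 rose most in the human DUX4 line. It had 2.82, 3.53 and 2.41 CPM in the uninduced libraries and 10.4, 11.9 and 11.1 CPM in the induced ones, or 1.92 on the log2 scale (SE 0.135, adjusted p 1.62e-10). Gm2022 went from 11.3, 11.4 and 11.2 CPM to 23.2, 23.0 and 23.0 CPM, or 1.03 (SE 0.0998, adjusted p 2.05e-08). Both sets of libraries are well apart, and those of Gm2022 hardly vary within a group. Gm2016 (15.3, 12.7 and 15.9 CPM against 26.6, 28.7 and 28.7) and Gm5662 (16.0, 12.5 and 15.8 against 27.8, 29.8 and 28.1) rose by 0.94 (SE 0.110) and 0.95 (SE 0.116) on the log2 scale. The smallest change was that of Gm8300, from 11.95, 10.07 and 9.20 CPM to 16.8, 18.6 and 16.9 CPM, or 0.74 (SE 0.113, adjusted p 9.03e-06).

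The luciferase line, which carries neither the mouse Dux nor the human DUX4 transgene, also had higher levels with doxycycline. The sum was 41.3, 43.6 and 42.5 CPM in the uninduced libraries and 92.0, 79.8 and 92.2 CPM in the induced ones. Again the groups do not overlap, and induced library 2 is the lowest of its group. The log2 fold change was 1.05 (SE 0.0912, adjusted p 2.85e-08), which is 2.07-fold. Each of the 5 members rose, in a comparison in which 14.7% of all genes tested rose and 16.4% fell.

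Within the luciferase line the 5 log2 fold changes lay close together, between 0.92 (Gm8300, SE 0.144, adjusted p 5.25e-05) and 1.13 (Gm2022, SE 0.123, adjusted p 6.60e-07). Gm5662 was the most abundant, at 18.1, 17.1 and 16.3 CPM uninduced and 36.8, 32.1 and 38.4 CPM induced. Gm2016 went from 14.5, 15.6 and 14.8 CPM to 32.8, 28.2 and 32.3 CPM. Both roughly doubled without overlap. Gm5039 was the lowest, with 1.10, 1.65 and 1.59 CPM against 3.42, 2.84 and 2.92 CPM, from 19 to 27 and from 44 to 55 reads, or 1.09 on the log2 scale (SE 0.193, adjusted p 0.000202). Gm2022 had 4.04, 5.36 and 4.76 CPM against 10.8, 8.91 and 11.2, and Gm8300 3.52, 3.96 and 4.97 against 8.21, 7.81 and 7.39.

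The response in the human DUX4 line was compared with that in the luciferase line by an interaction term, which tests whether the change in 1 line differs from that in the other. For the sum the difference in log2 fold change was -0.05 (SE 0.127, adjusted p 0.783), with a 95% confidence interval from -0.32 to 0.22. A difference between the lines was therefore not detected for the sum, and the interval allows the response to human DUX4 to be up to 0.32 smaller or 0.22 larger on the log2 scale. That interval rests on a spread estimated over all 6 groups, the mouse Dux libraries included. An edgeR fit of only the groups compared gave the same difference, -0.05, with a smaller SE of 0.0715 (adjusted p 0.572). Gm5039 was the exception among the members. Its change was 0.83 larger in the human DUX4 line (SE 0.249, adjusted p 0.00819, interval 0.31 to 1.35), in a comparison with 28.3% of all genes called higher and 26.7% lower. The other 4 differences lay between -0.18 (Gm8300) and -0.10 (Gm2022), with adjusted p from 0.426 to 0.635.

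**Figure D2:**
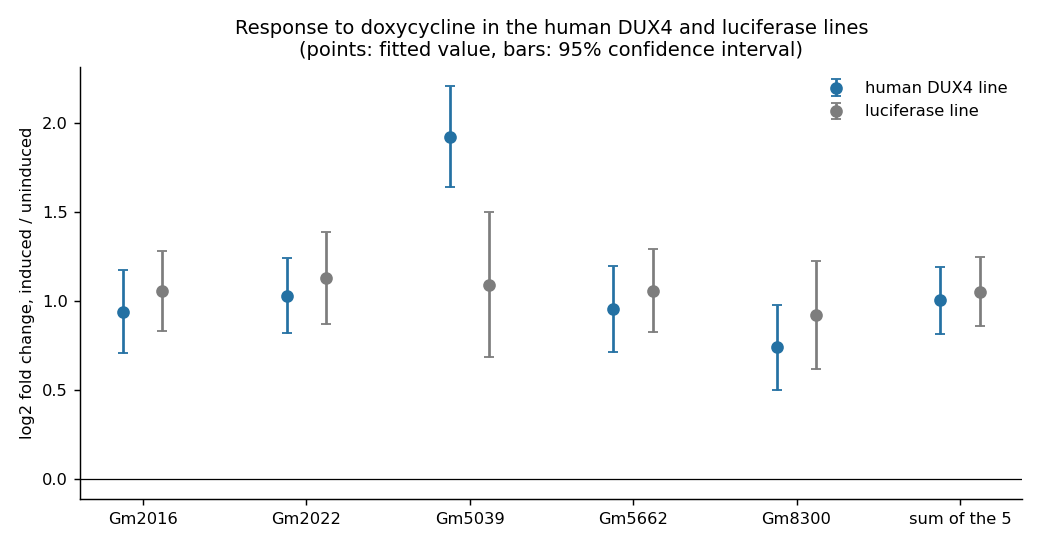
Log2 fold change, induced against uninduced, of each member and of their sum in the human DUX4 line (blue) and the luciferase line (grey), as fitted values with 95% confidence intervals. The intervals of the 2 lines overlap for the sum and for 4 members, while Gm5039 stands at 1.92 in the human DUX4 line and 1.09 in the luciferase line.

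Uninduced lines already differed. Against the uninduced luciferase line, the uninduced human DUX4 line had a sum higher by 0.35 on the log2 scale (SE 0.0927, adjusted p 0.00235). Gm8300 (1.34, SE 0.139), Gm2022 (1.26, SE 0.123) and Gm5039 (1.03, SE 0.197) were higher, with adjusted p of 4.23e-08, 1.84e-08 and 0.000105. Gm2016 (-0.04, adjusted p 0.791) and Gm5662 (-0.22, adjusted p 0.108) were not called different. So 3 of 5 members were called higher, where 36.0% of all genes tested were.

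The order of the groups followed the same division. For the sum it ran from induced mouse Dux through induced human DUX4, induced luciferase, uninduced human DUX4 and uninduced luciferase to uninduced mouse Dux, with no overlap between neighbours. Gm2022 and Gm8300 had uninduced human DUX4 (11.3 ± 0.0939 and 10.4 ± 1.40 CPM) above induced luciferase (10.3 ± 1.22 and 7.80 ± 0.408 CPM), and their lowest groups, uninduced luciferase and uninduced mouse Dux, overlapped. For Gm5662 induced luciferase (35.8 ± 3.29 CPM) lay above induced human DUX4 (28.6 ± 1.10 CPM). For Gm2016 the same groups, at 31.1 ± 2.52 and 28.0 ± 1.18 CPM, overlapped. Gm5039 had uninduced luciferase lowest, at 1.44 ± 0.302 CPM, below uninduced mouse Dux at 2.18 ± 0.315 CPM.

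The split of the sum among the copies shows this on 1 scale, free of the level itself. In the luciferase line Gm5662 held 40.5% ± 3.01 of the sum uninduced and 40.6% ± 0.885 induced, and Gm2016 held 35.3% ± 0.423 and 35.3% ± 0.298. Thus this pair, which shares most sequence among the members other than Gm2022, took most of the reads. The split hardly moved while the sum doubled. Under mouse Dux the order was Gm2022 with 26.7% ± 0.462, Gm2016 with 22.4% ± 0.332, Gm8300 with 18.9% ± 0.198, Gm5662 with 18.8% ± 0.218 and Gm5039 with 13.2% ± 0.273. Gm8300 was above Gm5662 in each of the 3 libraries, by little: 19.07% against 18.96%, 18.67% against 18.53% and 18.89% against 18.80%. In the human DUX4 line Gm5039 went from 5.45% ± 1.38 to 10.3% ± 0.324 and Gm8300 from 19.3% ± 2.10 to 16.1% ± 0.457, while Gm2022 stood at 21.0% ± 1.58 and 21.3% ± 0.772. These are shares of reads as assigned, and in the shared sequence the assignment of a read to 1 copy cannot be checked from the counts.

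**Figure D3:**
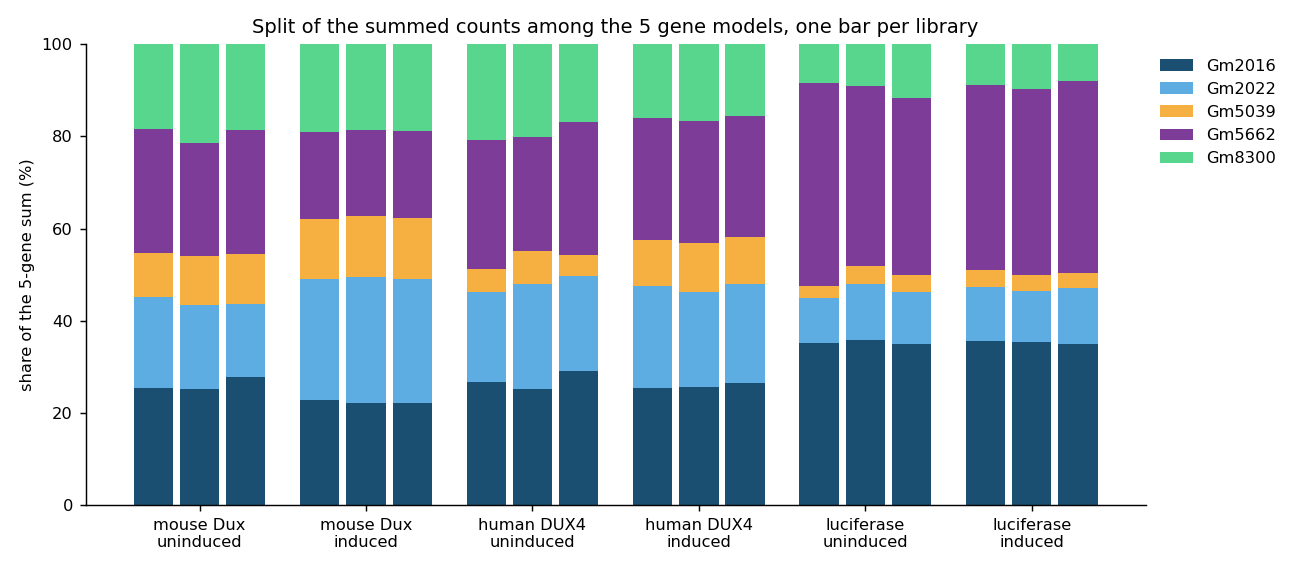
Share of the summed counts of the 5 members held by each, in percent, 1 stacked bar per library from 0 to 100. Gm5662 and Gm2016 fill most of each luciferase bar, Gm2022 and Gm5039 take more in the induced mouse Dux bars, and the Gm5039 segment is larger in the induced than in the uninduced human DUX4 bars.

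Other copies and the genes of the factor itself were then examined. Coding sequences at least 70% identical to a member over 70% of the shorter one were found for 13 further genes, of which BB287469, Gm21319, Eif1a and Eif1ax are in the count table. BB287469 rose in both lines, from 5.03 ± 0.194 to 7.81 ± 1.11 CPM under human DUX4 (log2 fold change 0.63, SE 0.156, adjusted p 0.00136) and from 5.11 ± 0.199 to 10.9 ± 2.23 CPM in the luciferase line (1.10, SE 0.144, adjusted p 7.03e-06). Gm21319 rose from 1.56 ± 0.306 to 4.17 ± 0.869 CPM (1.44, adjusted p 1.65e-05) and from 0.799 ± 0.242 to 1.76 ± 0.362 CPM (1.11, adjusted p 0.00977). The latter call is lost without induced luciferase library 1 (0.93, adjusted p 0.0590). Both copies thus moved in the same direction as the members in both lines. These changes are not independent of the members, since copies this alike can share reads. Of the 50-base windows of Gm2022, 45.6% occurred in BB287469.

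Eif1a and Eif1ax did not follow that pattern. Eif1a fell from 159 ± 2.24 to 86.4 ± 1.27 CPM under human DUX4 (log2 fold change -0.88, SE 0.0571, adjusted p 4.77e-11), and in the luciferase line stood at 108 ± 2.04 and 121 ± 6.56 CPM (0.17, adjusted p 0.0303). Without uninduced luciferase library 1, 2 or 3 its adjusted p was 0.101, 0.0826 and 0.0515, and without induced library 1 or 3 it was 0.113 and 0.125. Eif1ax rose by 0.26 under human DUX4 (adjusted p 0.00108) and fell by 0.27 in the luciferase line (adjusted p 0.00304). Under mouse Dux, Eif1a rose by 0.75 (SE 0.0565, adjusted p 6.11e-10), from 106 ± 4.97 to 178 ± 14.8 CPM. The members stood far higher there, and 13.7% of the 50-base windows of Gm2022 also occurred in Eif1a. Whether reads of the members were counted to Eif1a was not tested, so its rise is not independent of theirs. Eif1ax had 0.07 under mouse Dux (adjusted p 0.309), which turned to -0.17 with scaling by library size alone and to -0.01 without induced mouse Dux library 1. Eif1ad, a gene with a related name, rose by 0.54 under mouse Dux (adjusted p 5.42e-06) and had 0.15 in the luciferase line (adjusted p 0.204). Under human DUX4 it had -0.15 (adjusted p 0.0991), and was called lower without induced library 1 (-0.22, adjusted p 0.0316), with library size alone (adjusted p 0.0376) and with only the groups compared (adjusted p 0.00656).

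Of the 52 genes listed for translation initiation factors and their regulators, 50 were tested. With doxycycline the luciferase line had 9 of them higher and 11 lower, beside 14.7% and 16.4% of all genes, and a median change of -0.03. Eif4ebp1, which codes for a protein that binds eIF4E and represses cap-dependent translation, rose by 0.60, Eif3c, a subunit of eIF3, by 0.41 and Eif4b, a cofactor of the helicase eIF4A, by 0.37. The number that rose was 4, 5 and 5 without uninduced luciferase library 1, uninduced library 2 or induced library 3. Under human DUX4 14 rose and 23 fell, beside 34.4% and 33.1% of all genes, with a median of -0.05. Under mouse Dux 26 rose and 11 fell, beside 34.1% and 34.8%, with a median of 0.14. In the human DUX4 line Eif2ak3, the kinase PERK that phosphorylates eIF2, rose by 1.25, the cap-binding gene Eif4e2 rose by 1.13, and Eif2ak4, the kinase GCN2 that senses uncharged tRNA, fell by 0.90.

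Beside the 5 members, 7 other genes between Gm8300 and Gm5039 were counted and all were tested. In the luciferase line 5 of the 7 rose and 0 fell by edgeR (at an unadjusted p under 0.05 also 5 and 0, and by DESeq2 4 and 0), beside 14.7% and 16.4% of all genes, and the median of the 7 was 1.07. They were Gm16381 (1.25, SE 0.258, adjusted p 0.000917), Gm21319, BB287469, Gm1995 (1.07, adjusted p 0.0442) and Gm10436 (0.64, adjusted p 0.0361). Among them Gm21319 and BB287469 are the close copies described above, whose calls are not independent of those of the members. The count of 5 became 3 without uninduced luciferase library 2, uninduced library 3, induced library 1 or induced library 3. Gm2042 (0.25, adjusted p 0.174) and Gm7104 (0.67, adjusted p 0.191) did not pass.

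Under human DUX4 3 of these 7 rose and 0 fell by edgeR, as at an unadjusted p under 0.05 and by DESeq2, a share near the 34.4% of all genes that rose. Among the 4 with 60 reads or more over the 6 human DUX4 libraries, a limit chosen after their reads were seen, 3 rose and 0 fell. Their median was 1.03. Those that rose were Gm16381 and the close copies Gm21319 and BB287469, which are not independent of the members. Gm16381 had the largest change in the block, from 0.655 ± 0.301 to 6.80 ± 1.40 CPM, or 3.33 on the log2 scale (SE 0.279, adjusted p 2.32e-09). Of the 4 that did not pass, Gm1995, Gm7104 and Gm10436 had 24, 23 and 23 reads over the 6 human DUX4 libraries and were tested because of their level under mouse Dux, so no change could be read for them (without induced human DUX4 library 1 the count that fell was 1, Gm7104, from 16 reads uninduced and 7 induced over all libraries). Just outside, 5 of 8 counted genes within 150 kb of the block were tested. With luciferase 4 of the 5 rose, by 0.30 to 0.43 on the log2 scale, beside 14.7% of all genes: Sptlc2 (0.33), Alkbh1 (0.43), Snw1 (0.30) and Adck1 (0.32). Under human DUX4 Sptlc2 (0.52) and Snw1 (0.20) rose and Alkbh1, Slirp and Adck1 fell (-0.997, -0.23 and -0.61). Each luciferase change outside was smaller than that of every member.

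**Figure D4:**
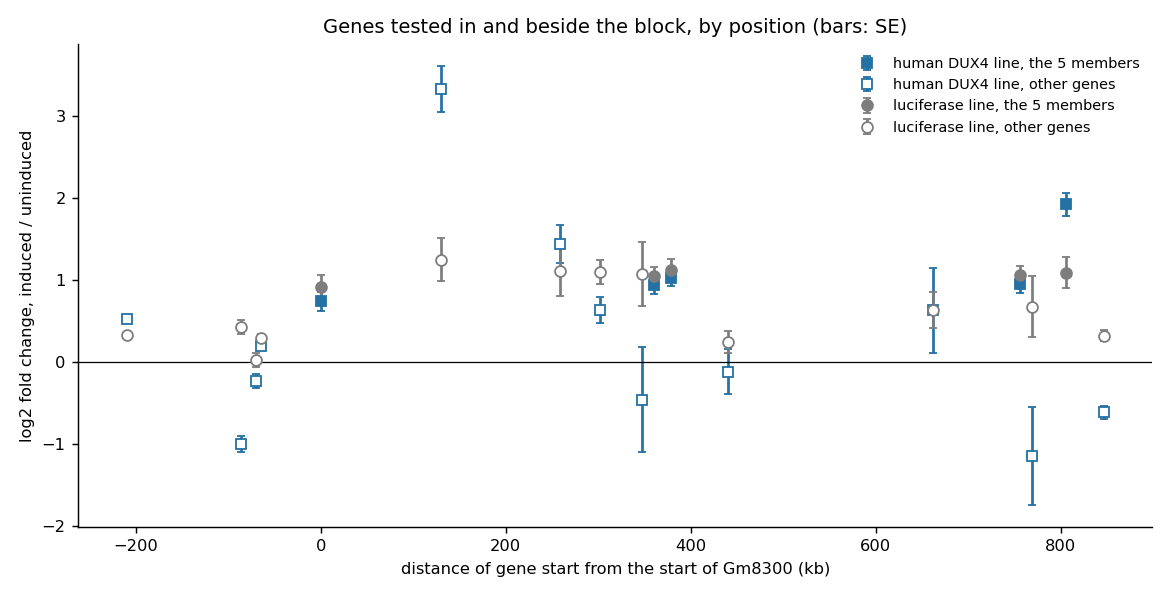
Log2 fold change, induced against uninduced, with SE, of the genes tested in and beside the block, against the distance of their start from that of Gm8300 in kb; filled points are the members and open points other genes, squares the human DUX4 and circles the luciferase line. In the luciferase line the members stand between 0.92 and 1.13, with Gm16381, Gm21319, BB287469 and Gm1995 near them and the genes outside at 0.43 or less.

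Promoter sequences, in RefSeq windows of 300 bases on GRCm38.p6, were matched for 0 of the 5 members and for 5 related copies. TGATTNAAT, part of the recognition sequence known for mouse Dux and searched on both strands, was chosen after the windows had been seen. It occurred once in the windows of BB287469, Gm21319 and Gm4027 and was not among the letters of those of Gm21936 and Gm6803. Of all 32851 promoter windows, 236 (0.718%) hold it. The windows of BB287469, Gm21319 and Gm4027 hold like letters around the match, so their matches are not separate and nothing is read from them against that share. The window of Gm21936 ends in letters that match the start of the members' coding sequence. That of Gm6803 holds letters like those just before that start. Sequence further upstream of Gm21936 and Gm6803 was not searched, so the absence does not describe their promoters. The 2 windows of counted copies are printed 5′ to 3′ on the gene's strand, with the match in capitals: BB287469 at chr12:87816327-87816626 (plus strand) and Gm21319 at chr12:87775706-87776005 (minus strand).
BB287469: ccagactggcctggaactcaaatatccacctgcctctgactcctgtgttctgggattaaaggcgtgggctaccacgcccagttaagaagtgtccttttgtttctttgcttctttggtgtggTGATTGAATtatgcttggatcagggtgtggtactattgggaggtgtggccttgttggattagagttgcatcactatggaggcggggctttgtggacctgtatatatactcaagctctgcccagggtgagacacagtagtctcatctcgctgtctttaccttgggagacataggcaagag
Gm21319: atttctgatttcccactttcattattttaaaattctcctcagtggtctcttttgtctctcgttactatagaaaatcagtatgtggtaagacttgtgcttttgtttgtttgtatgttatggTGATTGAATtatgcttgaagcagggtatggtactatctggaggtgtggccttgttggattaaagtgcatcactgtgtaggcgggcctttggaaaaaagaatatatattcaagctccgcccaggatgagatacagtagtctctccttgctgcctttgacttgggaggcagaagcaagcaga
The match begins at base 122 of the BB287469 window and base 121 of the Gm21319 window. It describes these letters only, since no binding was measured here.

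The members were set against other genes of the 2-cell stage, from a list of 35 of which 31 were tested. Under mouse Dux 28 of the 31 were higher and 0 lower (the same by unadjusted p and by DESeq2), beside 34.1% and 34.8% of all genes. The median log2 fold change was 11.32. Nothing is read from that count. The list was chosen with earlier results of these data known, and most of its genes passed the filter through their level there. Under human DUX4 13 rose and 1, Nelfa (-0.55), fell, beside 34.4% and 33.1% of all genes. Of the 31, 18 had fewer than 60 reads over the 6 human DUX4 libraries. Among the 13 with 60 reads or more, 9 rose and 1 fell under human DUX4, with a median of 0.73. The largest rises there were those of Tmem92 (0.135 ± 0.0663 to 108 ± 3.14 CPM), Pramef25 (0.518 ± 0.0788 to 77.4 ± 3.57 CPM) and Gm13119 (0.269 ± 0.0281 to 21.9 ± 1.46 CPM). For luciferase 0 rose and 0 fell by edgeR, beside 14.7% and 16.4% of all genes. The count was the same at an unadjusted p under 0.05, and DESeq2 called 0 (0 higher and 1 lower unadjusted). Most of these genes passed the filter through their level under mouse Dux, and 19 of the 31 had fewer than 60 reads over the 6 luciferase libraries, too few for that count to say much of them. For the 12 with 60 reads or more, a limit chosen after their reads were seen, the median was -0.02. They include Zscan4c (161 reads uninduced and 152 induced), Zscan4f (159 and 161), Gm4340 (257 and 257), Dppa2 (95 and 110) and Dppa4 (1435 and 1417). Of these, Dppa2 and Dppa4 were not called different under mouse Dux by edgeR (adjusted p 0.103 and 0.758). A fit of the luciferase groups alone called 1 lower.

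The multicopy families of that list were summed as the members were. The 5 Zscan4 genes, which code for zinc-finger proteins of the 2-cell embryo and of telomere maintenance in embryonic stem cells, had 10.99 ± 1.25 CPM uninduced and 11.3 ± 1.42 CPM induced in the luciferase line (log2 fold change 0.05, SE 0.141, adjusted p 0.854). The 5 Usp17l genes, which code for deubiquitinases, had 2.05 ± 0.486 and 2.01 ± 0.104 CPM (-0.02, SE 0.157, adjusted p 0.973). Neither family was called different there. The 2 Tcstv genes had 6 reads in the 3 uninduced and 2 in the 3 induced libraries, too few for a fold.

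The ratio of the member sum to the Zscan4 sum puts this within each library. It was 3.51 to 4.53 in the uninduced and 7.37 to 8.19 in the induced luciferase libraries. Against Usp17l it was 16.6 to 27.5 and 39.9 to 48.3. Neither pair of ranges overlaps, and each has an exact permutation p of 0.1 (two-sided), the smallest that 3 against 3 libraries allow. In the human DUX4 line the ratio to Zscan4 was 5.02 to 7.57 uninduced and 7.97 to 9.49 induced, while that to Usp17l was lower when induced, 13.6 to 16.0 against 27.0 to 38.2. There Usp17l rose by 2.202 (SE 0.131, adjusted p 1.22e-11) and Zscan4 by 0.51 (SE 0.145, adjusted p 0.00462), on either side of the members' 1.00.

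Over the 18 libraries the genes outside the family whose log2(CPM + 1) was most alike to that of the member sum were Wsb1 (Pearson r 0.991), Ccnl1 (0.988), Ints12 (0.983), Papolg (0.982) and Id1 (0.981). The 3 induced mouse Dux libraries lie far from the rest in the member sum, and this likeness rests mainly on them. In the 12 libraries of the human DUX4 and luciferase lines, a choice made after seeing the first, they were Mthfd2 (0.980), Fut8 (0.9748), Slc3a2 (0.973), Gpr137b-ps (0.968) and Samd4b (0.967). Mthfd2, a mitochondrial enzyme of folate metabolism, went from 59.9 ± 0.773 to 121 ± 22.9 CPM in the luciferase line, and Slc3a2, a subunit of amino acid transporters, from 127 ± 1.81 to 235 ± 31.5 CPM. The libraries share lines and treatments, so the coefficients are descriptions.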

How the data were processed

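The values are counts of reads per gene in a table the authors deposited, with gene symbols, Entrez and Ensembl identifiers. Per the submitters' processing notes the tools were CASAVA, TopHat2 2.0.12 and Bowtie2 2.2.3 on mm10; no counting program and no rule for reads that fit several genes is named in the sources used here. The library kit does not mark strand, so reads of overlapping antisense genes cannot be told apart.

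The members and gene lists were chosen with earlier results of these data known. Counts were fitted with edgeR 4.0.16 in R 4.3.3 (TMM scaling, filterByExpr, quasi-likelihood F test, 1 model over 6 groups and 18 libraries), with Benjamini-Hochberg adjustment over the 13602 genes tested. The member sum replaced the 5 rows in a second fit (13598 genes), and family sums were fitted in the same way. Calls use an adjusted p under 0.05. CPM uses TMM-scaled library sizes. The fit was tested on simulated data. Related genes were found by coding identity in place of protein identity, as no protein table was used here. The text names the members, the related genes, the 5 genes most alike and up to 3 called genes per list; genes in the block were added. Windows were compared over GENCODE vM21 transcripts. DESeq2 1.42.0, other scaling, no filter, fewer groups, a replicate block and leaving out each library were the alternatives. Same-numbered mouse Dux libraries deviated together (r 0.400, 0.219 and 0.202), which meets the rule of every pair over 0.1, but induced 2 with uninduced 3 (0.212) and induced 3 with uninduced 2 (0.187) did so as much; the other lines did not (-0.0449 to 0.0484).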

Additional observations from a re-analysis of the deposited data

Results flagged for a closer look

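Gm5039 is the member whose response to doxycycline differed between lines. Its log2 fold change was 0.83 larger in the human DUX4 line than in the luciferase line by the interaction term of edgeR's quasi-likelihood test (SE 0.249, adjusted p 0.00819), with 3 of 3 induced libraries above every uninduced one in both lines. Over the alternatives the difference ranged from 0.71 to 1.00 and its adjusted p from 0.00286 to 0.0422. In the luciferase line it rests on 19 to 27 reads per uninduced library. On the GENCODE transcripts Gm5039 is also the member with the smallest share of 50-base windows found in other genes, 17.3%. Within its coding sequence the share was 50.8%. Its GENCODE model, to base 88324026, reaches beyond its RefSeq span, to 88321762.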

How the results depend on the processing

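Under every alternative run, the sum kept its direction and its side of the threshold in the human DUX4 line (0.95 to 1.05), in the luciferase line (1.02 to 1.12), between the 2 responses (-0.11 to -0.0039) and between the uninduced lines (0.30 to 0.40), and 5 of 5 members were called in each line. With the replicate block the sum was 1.00 in the human DUX4 line and 1.05 in the luciferase line, and no call of a member changed; among the genes named beside them, Gm1995 and Gm10436 lost theirs in the luciferase line (adjusted p 0.0568 and 0.0561), so that 3 in place of 5 neighbours were called, and Eif1ad gained one under human DUX4 (0.0425). No paired fit could be made between the uninduced lines; the difference of responses of the sum was -0.05 with the block.

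Without Gm2022 the sum took 0.816% of all counts under mouse Dux. Counts per transcript length gave shares of 12.5% for Gm2016, 60.5% for Gm2022, 6.999% for Gm5039, 10.0% for Gm5662 and 9.93% for Gm8300, by dividing Gm2022 by its coding length only. Values near 0 that changed sign were the difference of responses of Gm2022 (-0.21 to 0.0063 with 1 library left out, highest without uninduced luciferase library 1), the uninduced line difference of Gm2016 (-0.096 to 0.059, highest without uninduced human DUX4 library 2), Gm2042 under human DUX4 (-0.33 to 0.22, highest without the same library), and Eif1ax under mouse Dux with library size alone (-0.17) and with 1 library left out (-0.010 to 0.12, lowest without induced library 1). With only the groups compared, Gm5662 was called lower in the uninduced human DUX4 line (-0.23, adjusted p 0.0164). Reads of Gm5039 limit its precision in the luciferase line.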
